A study of Homo sapiens with 30 samples.

Results

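The 10 genes described here encode receptors first known from natural killer (NK) cells and the adaptor proteins through which such receptors signal. They were matched by gene symbol, and all 10 were found among 60554 gene identifiers. The set holds the receptors KIR3DL2, KLRC1, KLRD1, KLRB1, NCR3 and KLRK1, the adhesion molecule NCAM1, and the adaptors TYROBP, FCER1G and HCST. RNA came from 5 human cell lines, all from the T-cell form of acute lymphoblastic leukaemia, namely Loucy, MOLT-16, PEER, PER-117 and TALL-1, which have no normal counterpart among the samples. Cells were given decitabine, an inhibitor of DNA methylation, at 1 µM for 48 h, or the solvent dimethyl sulfoxide (DMSO) for the same time. Each of the 10 groups held 3 libraries of RNA 3′ ends (QuantSeq FWD) and there were 30 in all. Nothing in the labels states that libraries of a group are separate cultures, so p-values measure the spread between these samples, which may be technical.

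NK cells weigh signals from activating and inhibitory receptors that read ligands on other cells. Inhibitory receptors such as KLRC1 (NKG2A, which binds HLA-E together with its partner KLRD1, or CD94) and KIR3DL2 (a killer immunoglobulin-like receptor) carry tyrosine motifs that recruit phosphatases. Activating receptors have short tails and borrow an adaptor in the membrane. TYROBP (DAP12) and FCER1G (the Fc receptor gamma chain) carry activation motifs that bind the kinases SYK and ZAP70. HCST (DAP10) instead binds PI3-kinase and GRB2, and is the adaptor of KLRK1 (NKG2D). T cells and NK cells arise from related progenitors, and some mature T cells use the same receptors. Myeloid cells and mast cells use TYROBP and FCER1G as well.

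Libraries held 2.20 M to 15.4 M reads on the strand of the genes. All 8 T-cell markers (CD3D, CD3E, CD3G, CD2, CD5, CD7, PTCRA and LCK) had reads in every group except for PTCRA in PER-117 with DMSO. Their summed level was lowest in PER-117, at 260 to 268 CPM (counts scaled to the library size) with decitabine and 437 to 462 CPM with DMSO. In every line this sum was lower with decitabine, without overlap. It was 1197 to 1287 CPM with decitabine and 1360 to 1561 CPM with DMSO in PEER. In TALL-1 it was 1434 to 1656 CPM with decitabine and 2152 to 2385 CPM with DMSO. MOLT-16 had 1476 to 1745 CPM with decitabine and 1787 to 2418 CPM with DMSO, and Loucy 780 to 819 CPM and 914 to 986 CPM. These are bulk cultures, in which fewer cells that express a gene and less RNA of that gene per cell cannot be told apart. In 3 DMSO libraries, genes restricted to another line stood out. Such genes had a median of at least 20 CPM in their own line. In every decitabine library of the other lines they lay under 2% of that median. Only DMSO libraries were screened in this way, and the choice of genes hides any mixing in a treated library. MOLT-16 DMSO replicate 3 held 6 PEER genes at 21.0% of their PEER level, TALL-1 DMSO replicate 3 held the same genes at 13.8%, and PEER DMSO replicate 2 held 3 MOLT-16 genes at 9.09% of their MOLT-16 level. The other 12 DMSO libraries reached at most 0.798%. The 3 libraries named are called mixed below, and values that change without them are given both ways where a result turns on them.

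TYROBP was higher with decitabine in 3 lines, at most at a few CPM, and in Loucy so were KLRC1 and FCER1G. KIR3DL2 in TALL-1 was called lower. Of the 10 genes 7 passed the filter on low counts, while KLRD1, KLRK1 and NCAM1 did not. Genes were called at adjusted p under 0.05 by quasi-likelihood F tests in edgeR, adjusted over 15081 genes by Benjamini-Hochberg, and 0 of the 7 were higher and 0 lower in PEER, where 3.54% of all genes were called higher and 0.961% lower. In TALL-1 0 were higher and 1 lower, against 6.74% and 6.12% of all genes. In MOLT-16 1 was higher and 0 lower, against 2.19% and 1.01%. In Loucy 3 were higher and 0 lower, against 10.6% and 4.13%. In PER-117 1 was higher and 0 lower, against 8.67% and 3.16%. KIR3DL2 in Loucy and PER-117 and KLRB1 in PER-117 had 0 reads in both treatments and could not be called. They still count among the 7 here, in the medians and in the comparison of libraries below. The median log2 change of the 7 genes was 0.51 in PEER, 0.05 in TALL-1, 0.38 in MOLT-16, 0.41 in Loucy and 0.63 in PER-117, and the median over all genes lay between -0.02 and 0.05. TYROBP had few reads in every DMSO group and entered the test through treated groups in which it was high, so these counts and medians lean towards rises. KLRC1 in Loucy, at 0.601 CPM with decitabine and 0 with DMSO, was tested only because the gene passed the filter through MOLT-16. There it stood at 29.7 CPM with decitabine and 22.7 CPM with DMSO.

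Libraries of the 2 treatments did not overlap for some uncalled genes as well. All 3 decitabine libraries lay above all 3 DMSO libraries for 3 of the 7 genes in PEER (12.5% of all genes), 1 in TALL-1 (15.5%), 2 in MOLT-16 (9.18%), 3 in Loucy (23.4%) and 4 in PER-117 (21.6%). They lay below for 1 of the 7 in TALL-1 (14.1%) and for 0 in PEER (11.2%), MOLT-16 (7.33%), Loucy (15.7%) and PER-117 (14.7%).

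**Figure D1:**
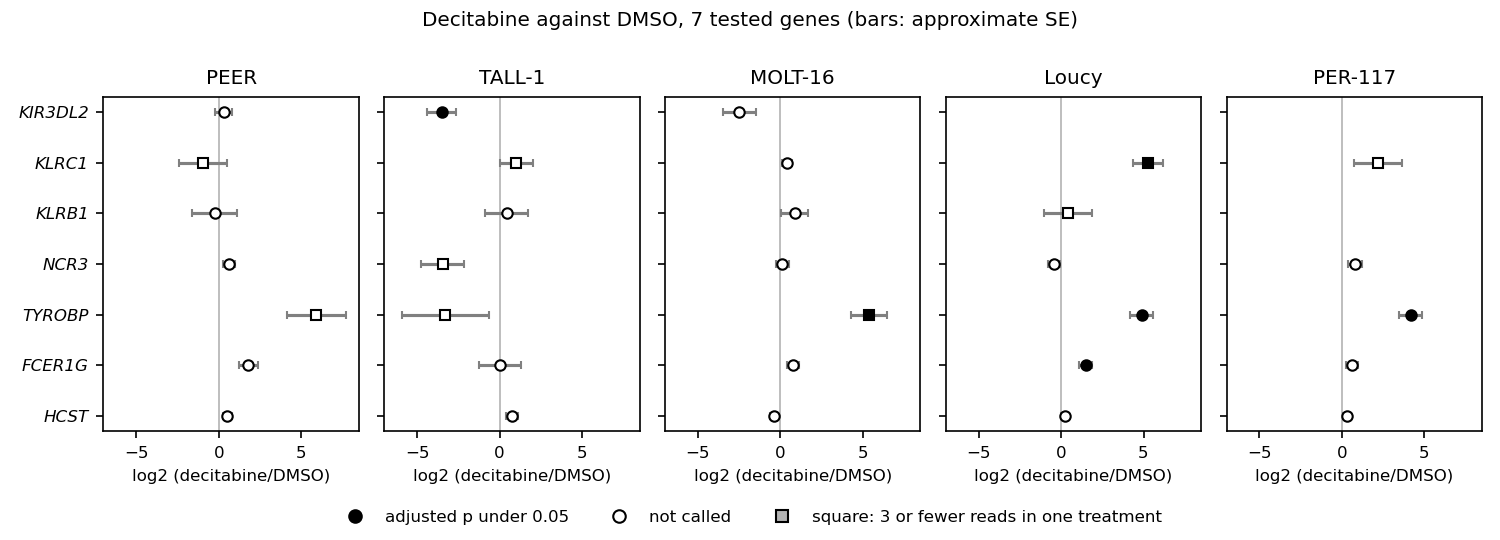
Log2 change of decitabine over DMSO (x axis) for the 7 tested genes (rows) in each of the 5 lines (panels), with bars of 1 approximate standard error (SE). KIR3DL2 in Loucy and PER-117 and KLRB1 in PER-117 had 0 reads and have no point. Filled points are the calls: KIR3DL2 at -3.51 in TALL-1, TYROBP at 5.38, 4.89 and 4.17 in MOLT-16, Loucy and PER-117, and KLRC1 and FCER1G at 5.28 and 1.48 in Loucy. Squares have 3 or fewer reads in 1 treatment and their fitted value depends on the prior count.

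TYROBP, the adaptor that couples activating receptors to SYK and ZAP70, had at most 6 reads in the DMSO libraries of any line. Its reads in replicates 1 to 3 numbered 52, 47 and 57 in Loucy with decitabine, against 0, 0 and 5 with DMSO. In PER-117 they numbered 32, 35 and 75 with decitabine, against 4, 0 and 2 with DMSO. In MOLT-16 they numbered 22, 9 and 9 with decitabine, against 0, 0 and 1 with DMSO, the single read lying in the mixed library. In each of these lines the treated libraries lay above the DMSO libraries without overlap. Levels were 3.65 ± 0.89 CPM in Loucy with decitabine and 0.114 ± 0.197 CPM with DMSO (SD, n = 3 each), with a log2 change of 4.89 (SE 0.69, adjusted p = 1.70e-05). In PER-117 they were 4.20 ± 2.401 CPM with decitabine and 0.221 ± 0.224 CPM with DMSO (log2 4.17, SE 0.69, adjusted p = 0.000168). MOLT-16 held 4.09 ± 0.47 CPM with decitabine and 0.0711 ± 0.123 CPM with DMSO (adjusted p = 0.00602), and its reads per library size were 49.4 times as many with decitabine (95% counting interval 8.38 to 2000).

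PEER and TALL-1 gave no TYROBP call. In PEER the reads were 7, 6 and 3 with decitabine and 0 in all DMSO libraries, at least 4.86-fold higher, with adjusted p = 0.0551. The treated PEER libraries held 1.05 ± 0.47 CPM and all lay above the DMSO libraries. In TALL-1 there were 0 reads with decitabine and 2 with DMSO, both in the mixed library. The difference of its response between the 5 lines gave adjusted p = 0.240, which does not show that the lines act alike. The fitted log2 values rest on few DMSO reads: without the DMSO library that held them they were 8.02 in MOLT-16 (without replicate 3), 7.81 in Loucy (without replicate 3) and 5.10 in PER-117 (without replicate 1), while Loucy gave 4.30 without DMSO replicate 2. The call stood in each case. In a comparison with the lines as 5 pairs TYROBP did not pass the filter. It passed with TALL-1 left out and was called there (log2 4.84, adjusted p = 0.0198). With reads of both strands counted the values were 3.52 in MOLT-16, 3.48 in Loucy and 3.43 in PER-117, and all were called. TYROBP and HCST run towards each other on chromosome 19 and their 3′ ends lie 23 bases apart, and 39 reads lay on the strand opposite to TYROBP. Whether those came from HCST was not tested.

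With all libraries in the fit TYROBP and FCER1G were called and HCST was not. The promoters of these adaptor genes are printed because the drug inhibits the methylation of CG pairs. Each is the RefSeq window of 250 bases before to 50 after the gene start (assembly GRCh38.p14), written 5′ to 3′ on the strand of the gene, with every CG pair in capitals. TYROBP lies on the minus strand at chr19:35908246-35908545, FCER1G on the plus strand at chr1:161215045-161215344 and HCST on the plus strand at chr19:35902279-35902578.
TYROBP: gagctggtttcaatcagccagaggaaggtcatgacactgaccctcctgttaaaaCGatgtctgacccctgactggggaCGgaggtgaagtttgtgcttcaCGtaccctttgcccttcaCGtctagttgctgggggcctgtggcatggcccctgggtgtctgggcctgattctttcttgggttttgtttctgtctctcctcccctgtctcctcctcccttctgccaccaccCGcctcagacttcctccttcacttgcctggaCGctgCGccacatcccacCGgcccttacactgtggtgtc
FCER1G: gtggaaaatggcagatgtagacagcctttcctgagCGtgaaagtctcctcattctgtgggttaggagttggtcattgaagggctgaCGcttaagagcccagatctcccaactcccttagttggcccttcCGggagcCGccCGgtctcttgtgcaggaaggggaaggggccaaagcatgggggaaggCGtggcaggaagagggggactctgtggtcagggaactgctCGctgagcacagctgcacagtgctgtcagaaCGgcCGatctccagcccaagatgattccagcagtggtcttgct
HCST: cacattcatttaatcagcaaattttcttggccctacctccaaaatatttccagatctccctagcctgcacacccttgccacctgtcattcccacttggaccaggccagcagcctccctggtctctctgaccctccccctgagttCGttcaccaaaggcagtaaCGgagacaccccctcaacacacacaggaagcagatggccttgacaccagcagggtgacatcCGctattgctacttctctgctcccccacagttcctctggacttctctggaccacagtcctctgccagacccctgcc
A search for CG, which reads the same on both strands, found 8 pairs in the TYROBP window, 9 in that of FCER1G and 3 in that of HCST. Among 35116 RefSeq windows of this length the median was 14 pairs, with quartiles of 4 and 28, and 41.6% of them held at most as many as TYROBP, 43.6% as FCER1G and 24.5% as HCST. KLRC1, which was called higher in Loucy, has 3 windows, with 1, 0 and 3 pairs. KLRB1, not called with all libraries in the fit, has 0 pairs in its window. Whether the number of pairs goes with the calls was not tested. Methylation was not analysed here.

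FCER1G, the second adaptor with an activation motif, was read in all 5 lines with DMSO. In Loucy it had 211, 278 and 211 reads with decitabine, against 100, 73 and 93 with DMSO, or 16.0 ± 1.51 CPM with decitabine and 5.73 ± 1.28 CPM with DMSO. The treated libraries lay above the others without overlap, with a log2 change of 1.48 (SE 0.38, adjusted p = 0.00708). Without Loucy DMSO replicate 2 the value was 1.30 and adjusted p = 0.0521, so the call rests on that library. In PEER the reads were 53, 29 and 28 with decitabine and 4, 22 and 5 with DMSO, and 22 of the 31 DMSO reads lay in the mixed library, replicate 2. PEER held 7.07 ± 2.08 CPM with decitabine and 1.95 ± 1.95 CPM with DMSO (log2 1.79, SE 0.57, adjusted p = 0.0721). With the mixed libraries left out the PEER change was 3.01 and called (adjusted p = 0.00075). FCER1G stood at 39.3 CPM in MOLT-16 with DMSO, the line whose genes that library held.

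The other lines gave no FCER1G call. PER-117 held 26.2, 31.7 and 28.96 CPM with decitabine, against 15.5, 18.2 and 22.2 CPM with DMSO, groups that did not overlap (log2 0.63, SE 0.36, adjusted p = 0.293). MOLT-16 held 64.5, 95.4 and 41.4 CPM with decitabine, against 39.6, 60.8 and 17.7 CPM with DMSO, with overlap (log2 0.78, SE 0.37, adjusted p = 0.241). TALL-1 had 7 reads with decitabine, all in replicate 2, and 7 with DMSO, of which 6 lay in the mixed library. With counts summed per group and the lines taken as 5 pairs, FCER1G had a log2 change of 1.05 and adjusted p = 0.0853, in a comparison that called 0.0578% of 13830 genes higher and 0% lower.

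HCST, the adaptor of KLRK1, had reads in all 30 libraries and was called in no line. PEER held 47.4 ± 11.7 CPM with decitabine and 33.0 ± 9.90 CPM with DMSO (log2 0.51, SE 0.26, adjusted p = 0.299). TALL-1 held 9.50 ± 2.33 CPM with decitabine and 5.77 ± 1.84 CPM with DMSO (log2 0.74, SE 0.35, adjusted p = 0.171). In Loucy the levels were 97.7 ± 9.64 CPM with decitabine and 82.4 ± 16.4 CPM with DMSO, and in PER-117 they were 120 ± 10.3 CPM with decitabine and 96.5 ± 11.6 CPM with DMSO. MOLT-16 held 184, 231 and 188 CPM with decitabine, against 229, 393 and 151 CPM with DMSO, the lowest DMSO value being that of the mixed library (log2 -0.36, SE 0.24, adjusted p = 0.423). With the mixed libraries left out, HCST was called higher in PEER (log2 0.76, adjusted p = 0.0369) and TALL-1 (1.07, adjusted p = 0.0354) and lower in MOLT-16 (-0.67, adjusted p = 0.0148). Over all libraries HCST had 21350 reads on its own strand and 14413 in the unstranded column, and 50.1% of its exonic bases overlap a transcript annotated on the other strand (AD000864.1).

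**Figure D2:**
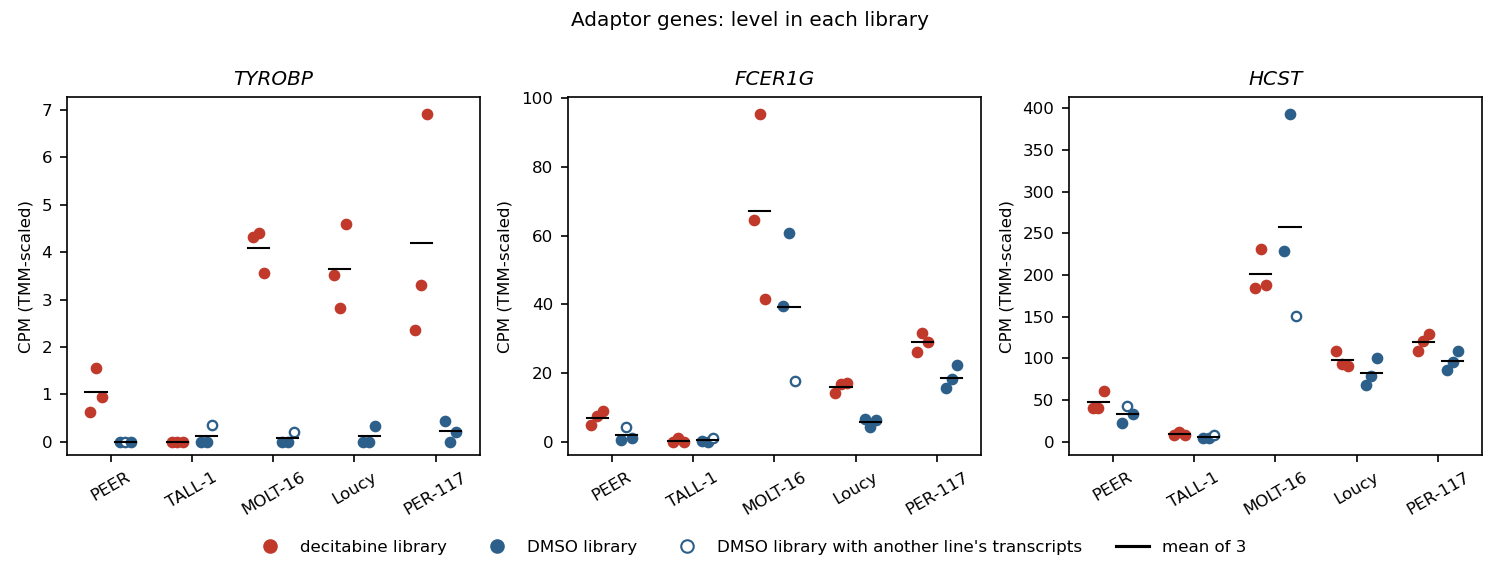
Level of TYROBP, FCER1G and HCST in each library (y axis, CPM on TMM-scaled library sizes) by line, decitabine left of DMSO, with a bar at the mean of 3 libraries; open points are the mixed DMSO libraries. TYROBP lies at 2.37 to 6.92 CPM in the treated libraries of MOLT-16, Loucy and PER-117 and at 0 to 0.447 CPM in all DMSO libraries, while HCST overlaps between treatments in all lines but PER-117.

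KIR3DL2, an inhibitory receptor of the killer immunoglobulin-like family, was seen in PEER and to a lesser degree in TALL-1 and MOLT-16. PEER held 19.2, 21.0 and 26.4 CPM with decitabine, against 21.4, 8.97 and 23.6 CPM with DMSO, where the low value is the mixed library (log2 0.29, SE 0.53, adjusted p = 0.830). In TALL-1 it had 4, 5 and 0 reads with decitabine, against 56, 6 and 49 with DMSO, and the groups did not overlap in CPM. TALL-1 levels were 0.556 ± 0.489 CPM with decitabine and 7.42 ± 5.40 CPM with DMSO, a fall by 3.51 on the log2 scale (SE 0.89, adjusted p = 0.0120). The call was lost without DMSO replicate 1 (adjusted p = 0.0524) and without decitabine replicate 2 (adjusted p = 0.0519), at log2 changes of -3.02 and -3.70. Replicate 3, with 49 of the 111 DMSO reads, is the mixed library that held PEER genes, and replicate 2, with 6 reads, was close to the treated libraries. With the mixed libraries left out the change was -3.38 and called.

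In MOLT-16 KIR3DL2 had 8 reads with decitabine, all in replicate 1, and 57 with DMSO, of which 44 lay in the mixed library (log2 -2.50, SE 1.00, adjusted p = 0.172). With the mixed libraries left out the value was -1.17 (adjusted p = 0.480). Loucy and PER-117 had 0 KIR3DL2 reads in all 12 libraries. Genes of this family share long stretches of sequence, so the split of reads among them is uncertain; KIR3DL1 had 8 reads in all. The promoter of KIR3DL2 is shown because it was the gene of the 10 that was called lower. It lies on the plus strand at chr19:54850193-54850492 and holds 13 CG pairs, in capitals, and 49.7% of all windows held at most as many.
KIR3DL2: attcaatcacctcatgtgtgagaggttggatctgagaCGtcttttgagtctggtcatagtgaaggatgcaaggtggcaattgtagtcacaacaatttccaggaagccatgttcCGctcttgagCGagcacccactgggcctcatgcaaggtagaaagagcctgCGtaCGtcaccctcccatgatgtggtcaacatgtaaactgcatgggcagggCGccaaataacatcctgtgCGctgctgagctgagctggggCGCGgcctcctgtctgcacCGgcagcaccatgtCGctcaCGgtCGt

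KLRC1 and KLRD1 encode the chains of the CD94/NKG2A receptor for HLA-E. In MOLT-16 KLRC1 stood at 25.5, 28.4 and 35.1 CPM with decitabine, against 25.03, 22.3 and 20.7 CPM with DMSO, with no overlap (log2 0.38, SE 0.29, adjusted p = 0.490). Loucy had 13, 6 and 7 KLRC1 reads with decitabine and 0 with DMSO in all 3 libraries, at least 9.28-fold higher (adjusted p = 0.000225), though its treated level was 0.601 ± 0.261 CPM. The remaining lines had at most 6 reads per group. The KLRC1 response differed between the 5 lines (adjusted p = 0.0135, in a test that called 13.6% of all genes), a call that was lost with the replicate number as a block (adjusted p = 0.0537).

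KLRD1 had too few reads for the test and is described by counts. In MOLT-16 there were 31 reads with decitabine and 13 with DMSO, a ratio of 2.95 (95% counting interval 1.498 to 6.13). PER-117 had 9, 6 and 11 reads with decitabine, against 1, 0 and 0 with DMSO, a ratio of 20.7 (3.40 to 848). Loucy had 6, 4 and 1 with decitabine and 0 with DMSO, at least 3.93-fold higher. In PER-117 and Loucy each treated library lay above all DMSO libraries. A fit with no filter called KLRD1 higher in both (adjusted p = 0.00767 in PER-117 and 0.0169 in Loucy). KLRD1 also passed the filter when 1 library of either line was left out. It was then called except without PER-117 DMSO replicate 2 (adjusted p = 0.0504), without Loucy decitabine replicate 1 (adjusted p = 0.0764) and without Loucy DMSO replicate 2 (adjusted p = 0.0541). In Loucy KLRC1 and KLRD1 were thus both read in all treated libraries and in no DMSO library. The related gene KLRC2, not among the 10, had 4, 6 and 2 reads in Loucy with decitabine, against 0, 1 and 0 with DMSO. In MOLT-16 KLRC2 had 6 reads with decitabine and 11 with DMSO. Exons of KLRC1 and KLRC2 overlap by 37 bases, and the split of reads between them was not tested. Counting intervals and floors cover counting error only.

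KLRB1 (CD161), a lectin-like receptor whose ligand is CLEC2D, was read mainly in MOLT-16. It had 12, 18 and 3 reads there with decitabine, against 5, 11 and 8 with DMSO, or 4.11 ± 4.11 CPM with decitabine and 2.09 ± 1.05 CPM with DMSO (log2 0.87, SE 0.81, adjusted p = 0.577). The groups overlapped. PER-117 had 0 reads and the other lines 3 to 8 reads per group, and no change was detectable at this depth.

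NCR3 (NKp30), an activating receptor that signals through CD247 and FCER1G, was read in all lines and called in none. PEER held 13.2, 15.6 and 12.7 CPM with decitabine, against 6.30, 9.16 and 11.8 CPM with DMSO, without overlap (log2 0.61, SE 0.37, adjusted p = 0.397). PER-117 held 3.33, 4.74 and 3.32 CPM with decitabine, against 2.01, 1.57 and 2.91 CPM with DMSO, also without overlap (log2 0.80, SE 0.42, adjusted p = 0.245). MOLT-16 held 12.2 ± 2.98 CPM with decitabine and 11.1 ± 1.17 CPM with DMSO, and Loucy 6.43 ± 1.99 CPM with decitabine and 8.68 ± 1.41 CPM with DMSO, both with overlap and neither called. In TALL-1 there was 1 read with decitabine, against 14 with DMSO, and all 14 lay in the mixed library. Without it NCR3 had 0 DMSO reads in TALL-1.

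NCAM1 (CD56), the adhesion molecule by which NK cells are usually recognised, had 40 reads over all 30 libraries. Loucy had 11 with decitabine and 4 with DMSO, a ratio of 2.95 (0.873 to 12.7), and PER-117 had 5 with decitabine and 10 with DMSO, where 9 of the 10 lay in DMSO replicate 3. No line showed a difference beyond counting error.

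**Figure D3:**
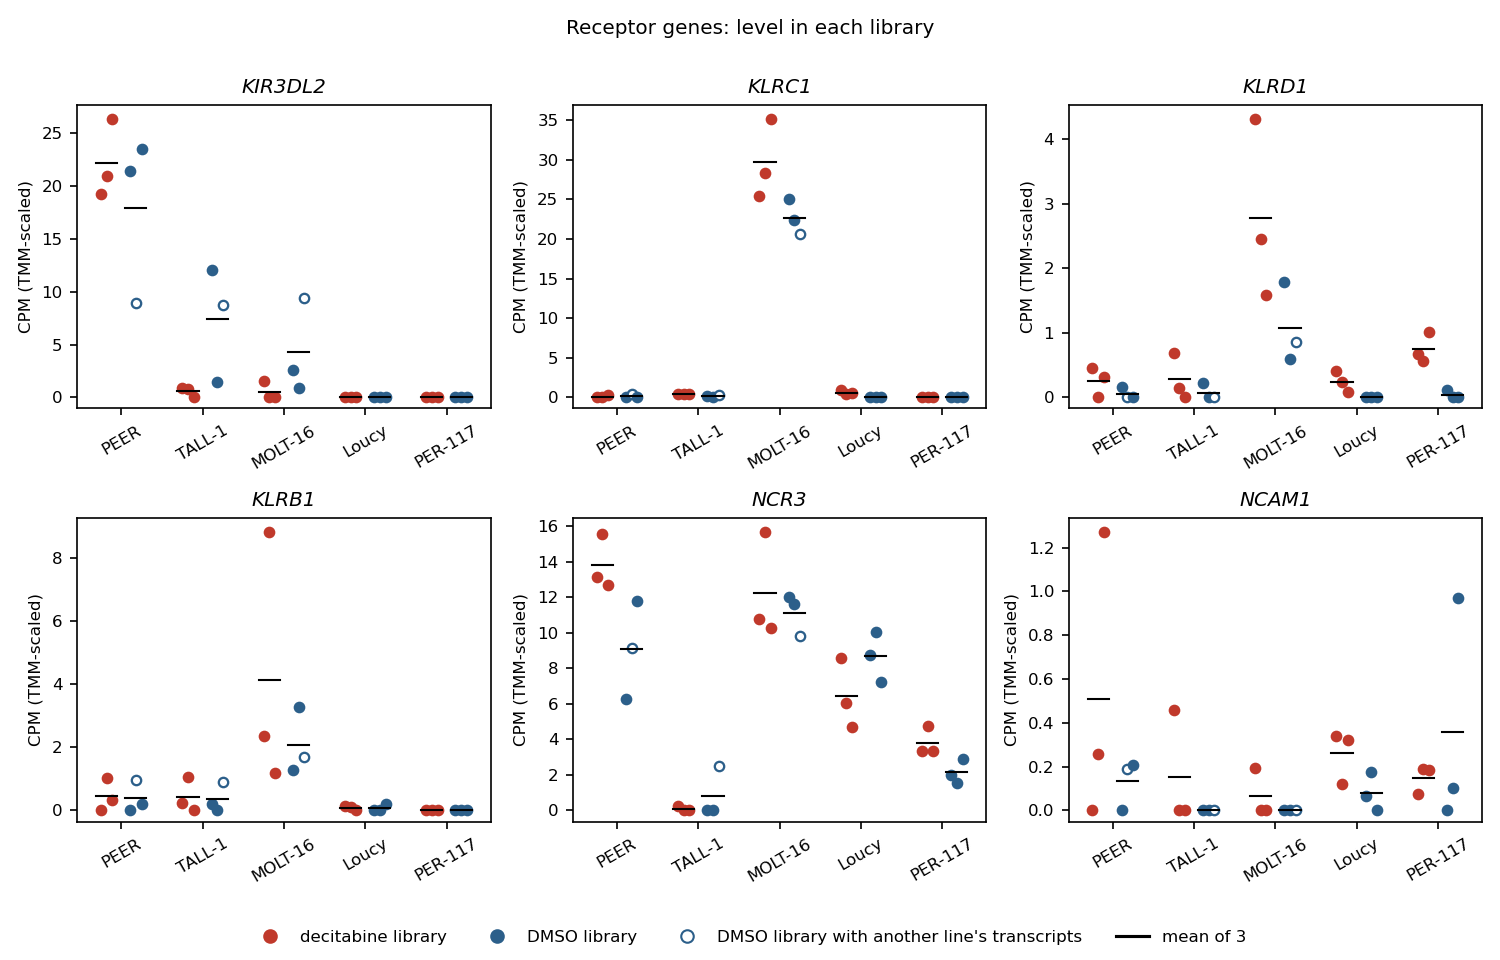
Level of the 6 receptor and adhesion genes other than KLRK1 in each library (y axis, CPM, each panel on its own scale) by line, decitabine left of DMSO, with a bar at the mean of 3 libraries and open points for the mixed libraries. KIR3DL2 in TALL-1 and MOLT-16 shows the spread among DMSO libraries, KLRC1 stands at 20.7 to 35.1 CPM in MOLT-16, and the KLRD1 points of treated PER-117 libraries lie at 0.568 to 1.01 CPM.

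KLRK1 (NKG2D), the activating receptor that pairs with HCST, had 4 reads on its own strand in 30 libraries, in MOLT-16 and Loucy. This count is a lower limit. All 500 bases at its annotated 3′ end, where this kind of library reads, are also exonic in the readthrough gene KLRC4-KLRK1, with which KLRK1 shares 62.7% of its exonic bases, and gene counting by STAR sets aside reads that fall in more than 1 gene. KLRC4-KLRK1 itself had 2 reads. A level of KLRK1 can therefore not be given. On the opposite strand of KLRK1 there were 75 reads, of which PER-117 held 24, 9 and 23 with decitabine, against 3, 4 and 9 with DMSO, a ratio of 2.86 (95% counting interval 1.61 to 5.33). The groups met at 9 reads. This count is a lower limit too, since reads over bases shared with KLRC4-KLRK1 are set aside on either strand. The unstranded column of KLRK1 held 79 reads, the 4 and the 75. The 75 reads were thus not among those set aside as shared with a gene on the other strand, and their source was not tested. The annotated antisense gene AC022075.1 overlaps KLRK1, and its own reads were also most numerous in PER-117, at 16.0 ± 1.61 CPM with decitabine and 9.52 ± 0.79 CPM with DMSO (log2 0.74, SE 0.25, adjusted p = 0.0579). In Loucy it had 25 reads with decitabine and 6 with DMSO, a log2 change of 2.05 that was called (SE 0.54, adjusted p = 0.0100).

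**Figure D4:**
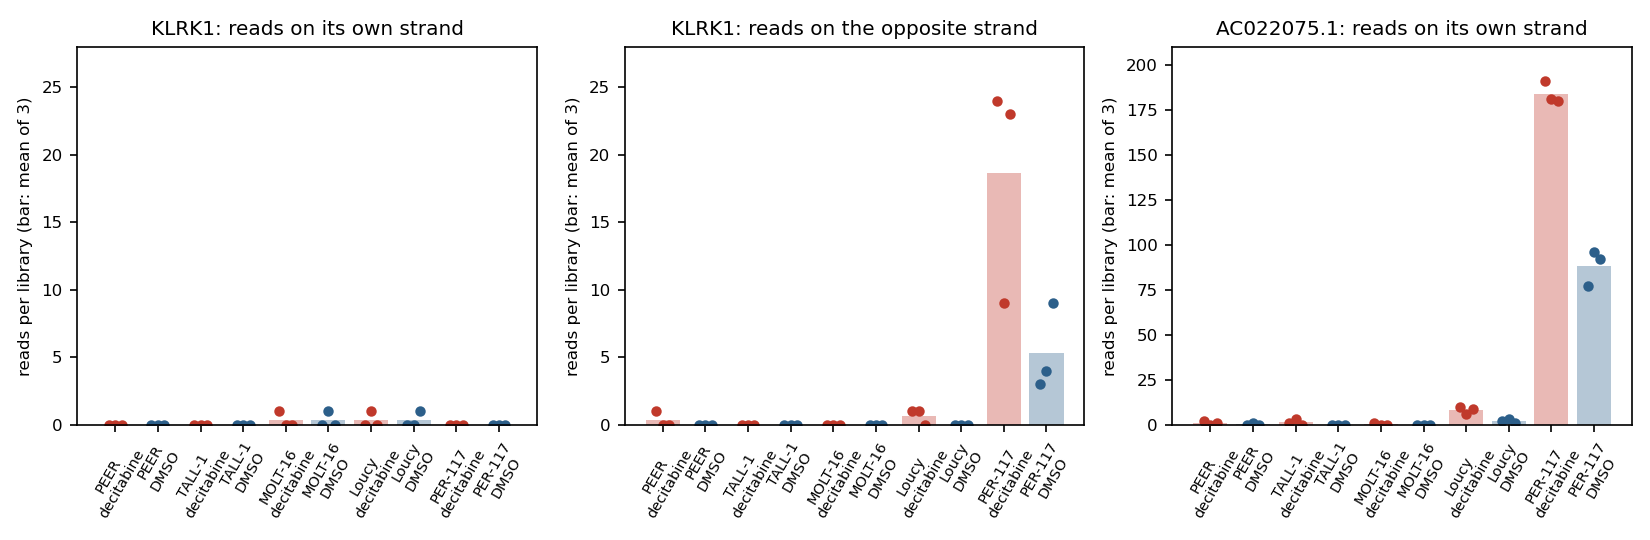
Reads per library (y axis; points, with a bar at the mean of 3) for KLRK1 on its own strand, KLRK1 on the opposite strand and the antisense gene AC022075.1 on its own strand, by line with decitabine left of DMSO. KLRK1 itself has at most 1 read in a library, while the opposite strand has 9 to 24 reads in treated PER-117 libraries and 3 to 9 in those given DMSO.

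Without decitabine the lines differed in 6 of the 7 tested genes by an F test over the 5 DMSO groups, which called 91.6% of all genes. TYROBP was the exception (adjusted p = 0.519), with 0 to 6 reads per line. The tests between pairs of lines called 42.8% of all genes for PEER against TALL-1, 46.2% for PEER against MOLT-16, 58.2% for PEER against Loucy, 56.4% for PEER against PER-117, 48.2% for TALL-1 against MOLT-16, 60% for TALL-1 against Loucy, 58.2% for TALL-1 against PER-117, 61.3% for MOLT-16 against Loucy, 57.7% for MOLT-16 against PER-117 and 57.5% for Loucy against PER-117. HCST stood highest in MOLT-16, at 258 ± 124 CPM, then in PER-117 and Loucy, which did not differ beyond their spread (adjusted p = 0.437), then in PEER and last in TALL-1, and each other step in this order was called. FCER1G ran from MOLT-16 at 39.3 ± 21.5 CPM through PER-117 at 18.6 ± 3.37 CPM and Loucy at 5.73 CPM to PEER at 1.95 CPM, each step called (adjusted p at most 0.0161), while PEER and TALL-1, at 0.430 CPM, were not told apart (adjusted p = 0.101). NCR3 did not differ beyond its spread among MOLT-16, PEER and Loucy, at 8.68 to 11.1 CPM, and was lower in PER-117 at 2.16 CPM and TALL-1 at 0.836 CPM (adjusted p = 0.0970 between these). KIR3DL2 stood highest in PEER at 17.98 ± 7.87 CPM, not distinguished from TALL-1 (adjusted p = 0.0814), which in turn was not told apart from MOLT-16 (adjusted p = 0.375). KLRC1 was higher in MOLT-16 than in each other line (adjusted p at most 3.52e-10). KLRB1 had its highest mean in MOLT-16, where it was not told apart from PEER (adjusted p = 0.0636) or TALL-1 (adjusted p = 0.0813).

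With the mixed libraries left out HCST, FCER1G, NCR3 and KIR3DL2 kept the order of these steps. KIR3DL2 was then higher in PEER than in TALL-1 (log2 1.74, adjusted p = 0.00664) and higher in TALL-1 than in MOLT-16 (log2 1.92, adjusted p = 0.0312). KLRB1 was then lower in PEER (adjusted p = 0.0169) and TALL-1 (adjusted p = 0.0266) than in MOLT-16, and NCR3 was lower in TALL-1 than in PER-117 (log2 -7.15, adjusted p = 6.38e-05), where TALL-1 had 0 reads. FCER1G in PEER and TALL-1 was still not told apart (adjusted p = 0.156).

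Genes with a like pattern were sought over the means of log2(CPM + 1) in the 10 groups, among 11154 protein-coding genes, for the 5 of the 10 genes that reached 5 CPM in a group. The nearest to KIR3DL2 was TBCK (Pearson r = 0.976, Spearman rho = 0.863), then BEX2 and TRAPPC4. For KLRC1 it was BTLA, an inhibitory receptor of lymphocytes (r = 0.998, rho = 0.936), then UTS2 and HLA-DRB5. For NCR3 it was LGALS9, a galectin (r = 0.980, rho = 0.964), then BIVM and SMAD6. For FCER1G it was CLPB (r = 0.983, rho = 0.964), then PROX2 and KRT72. For HCST it was APOBEC3D, a cytidine deaminase (r = 0.981, rho = 0.927), then GPR65 and F12. The 10 points are pairs of groups from 5 lines and share those lines, so these values are a description only.

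The genes were set in their pathway with 4 lists: 26 other receptors, 14 ligands, 19 signalling proteins and 14 transcription factors of NK cells. They were chosen with earlier results of these data in view, and their counts are read against the shares of all genes given above. Of the other receptors 11 were tested. In Loucy 4 of these were higher and 1 lower, with a median log2 change of 0.50 against 0.03 for all genes. NCR2 (NKp44, which signals through TYROBP) had 31, 25 and 18 reads there with decitabine, against 0, 1 and 2 with DMSO, a ratio of 26.4 (95% counting interval 8.69 to 131, adjusted p = 0.000180). LILRB1, an inhibitory receptor for HLA class I, held 2.76 ± 0.54 CPM with decitabine and 0.176 ± 0.109 CPM with DMSO (log2 3.89, SE 0.59, adjusted p = 0.000203, though DESeq2 gave 0.226), and KLRF1 (NKp80) rose by 1.83 on the log2 scale (SE 0.44, adjusted p = 0.00442). In TALL-1 NCR2 had 10 reads with decitabine and 0 with DMSO, at least 3.49-fold higher (adjusted p = 0.0428). That call was lost without any library of 5 of the 6 (adjusted p 0.0656 to 0.180) and kept without decitabine replicate 1. In PER-117 LAIR1, an inhibitory collagen receptor, was called at -0.50 (adjusted p = 0.0451), but no longer without decitabine replicate 1 or 2 or any DMSO library (adjusted p 0.0761 to 0.175). PEER and MOLT-16 had 0 calls among the 11 with all libraries in the fit.

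Of the ligands 9 were tested, and 2 were higher in Loucy. HLA-F, a class I molecule read by killer immunoglobulin-like receptors, held 36.8 ± 1.55 CPM with decitabine and 11.1 ± 3.58 CPM with DMSO (log2 1.72, SE 0.31, adjusted p = 0.000185). CLEC2D, the ligand of KLRB1, had a log2 change of 0.94 (SE 0.30, adjusted p = 0.0306), lost without decitabine replicate 2 or 3 or DMSO replicate 1 or 3 (0.82 to 0.93). MICB, a stress ligand of KLRK1, was lower in TALL-1 (log2 -0.49, adjusted p = 0.0395) and in MOLT-16 (log2 -0.64, adjusted p = 0.0242), and both calls depend on single libraries. They were lost without any TALL-1 library but decitabine replicate 1 (log2 -0.53 to -0.43) and without any decitabine library of MOLT-16 (log2 -0.66 to -0.63). PEER and PER-117 had 0 calls among the ligands with all libraries in the fit.

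Of the 18 signalling proteins tested, 5 were lower in PER-117 and 0 higher, with a median of -0.28 against 0.05 for all genes. They included CD247, the chain that NCR3 uses, with 79.2 ± 7.13 CPM with decitabine and 122 ± 6.05 CPM with DMSO (log2 -0.62, SE 0.16, adjusted p = 0.00808), and the exchange factor VAV1 (log2 -0.69, SE 0.14, adjusted p = 0.000726). INPP5D, a lipid phosphatase, was called at -0.63 (adjusted p = 0.0448), and not without any library but decitabine replicate 3 (adjusted p 0.0777 to 0.199). LCK, a Src-family kinase, was lower in TALL-1 (log2 -1.09, SE 0.13, adjusted p = 1.77e-06). PLCG2, a phospholipase, was higher in MOLT-16 (log2 1.76, SE 0.32, adjusted p = 0.00123), though not called with the line fitted alone (1.78, adjusted p = 0.113). In Loucy FYN was higher (0.70, adjusted p = 0.00844, or 0.58 and adjusted p = 0.0718 without DMSO replicate 3) and LCP2 lower (-0.68, adjusted p = 0.00534). PTPN6, the phosphatase SHP-1 that inhibitory receptors recruit, was called higher in PEER (0.71, adjusted p = 0.0276) and TALL-1 (0.68, adjusted p = 0.0285). These PTPN6 calls were lost without decitabine replicate 1 or 2 or DMSO replicate 1 or 2 of PEER (0.61 to 0.74) and without any TALL-1 library but decitabine replicate 2 and DMSO replicate 3 (0.52 to 0.72).

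All 14 transcription factors were tested. As in the other lists, only the 3 called genes with the largest change in each line are named, so a gene may be called in further lines. ID2, an inhibitor of E proteins that NK cells need, was called higher in 4 lines. PER-117 held 30.3 ± 0.93 CPM with decitabine and 6.15 ± 0.43 CPM with DMSO (log2 2.30, SE 0.28, adjusted p = 1.25e-06), and the change was 1.92 in TALL-1, 1.51 in MOLT-16 and 1.58 in PEER, where 42 of the 65 DMSO reads lay in the mixed library. The PEER change was 2.53 with the mixed libraries left out (adjusted p = 7.04e-07), and its call was lost without DMSO replicate 1 (adjusted p = 0.0528) and with the line fitted alone (adjusted p = 0.168). TBX21 (T-bet) was higher in PER-117 (log2 2.10, SE 0.36, adjusted p = 0.000169) and in PEER (1.93, adjusted p = 0.0325, or 0.0511 with the replicate block), where it was lost without DMSO replicate 1 or 3 or decitabine replicate 3 (1.40 to 1.82). EOMES was higher in TALL-1 (1.88, adjusted p = 0.0180), and lost without decitabine replicate 1 or 3 or DMSO replicate 2 (1.65 to 1.76). Neither gene is particular to the lines named. In Loucy EOMES had 440, 417 and 336 reads with decitabine, against 155, 214 and 235 with DMSO. TBX21 had 429, 494 and 393 there with decitabine, against 267, 292 and 125 with DMSO. PRDM1 was higher in Loucy (2.395, adjusted p = 0.000538) and PER-117 (1.85, adjusted p = 0.00952). Loucy had 5 higher and 4 lower in all, among them GATA3, a factor of T-cell development, at 195 ± 19.7 CPM with decitabine and 414 ± 64.6 CPM with DMSO (log2 -1.09, SE 0.16, adjusted p = 1.20e-05), and TCF7 (1.36, adjusted p = 0.00560, or 1.00 and adjusted p = 0.0553 without DMSO replicate 3, and 2.20 and adjusted p = 0.000118 without DMSO replicate 2). ZBTB16 (PLZF) was called higher in PEER (1.07, adjusted p = 0.0306, but 0.0817 to 0.156 without decitabine replicate 1 or 3 or DMSO replicate 1 or 2) and lower in TALL-1, where it had 1 read with decitabine and 19 with DMSO, a ratio of 0.0552 (0.00133 to 0.347, adjusted p = 0.0208). Of the 19 reads 16 lay in the mixed library, without which the change was -2.01 (adjusted p = 0.420), and the call was also lost without any decitabine library (adjusted p 0.0526 to 0.0795).

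Without the mixed libraries the list counts shifted with those of all 15741 genes tested, of which 1539 were called higher and 1249 lower in MOLT-16, 1174 higher and 1022 lower in TALL-1, 1877 higher and 881 lower in PER-117, and 740 higher and 141 lower in PEER. In MOLT-16 the other receptors then had 0 higher and 3 lower, the ligands 0 higher and 3 lower, and the signalling proteins 1 higher and 5 lower. TALL-1 had 3 signalling proteins higher and 3 lower, PER-117 had 3 ligands higher and 0 lower, and PEER had 2 other receptors higher and 0 lower.

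**Figure D5:**
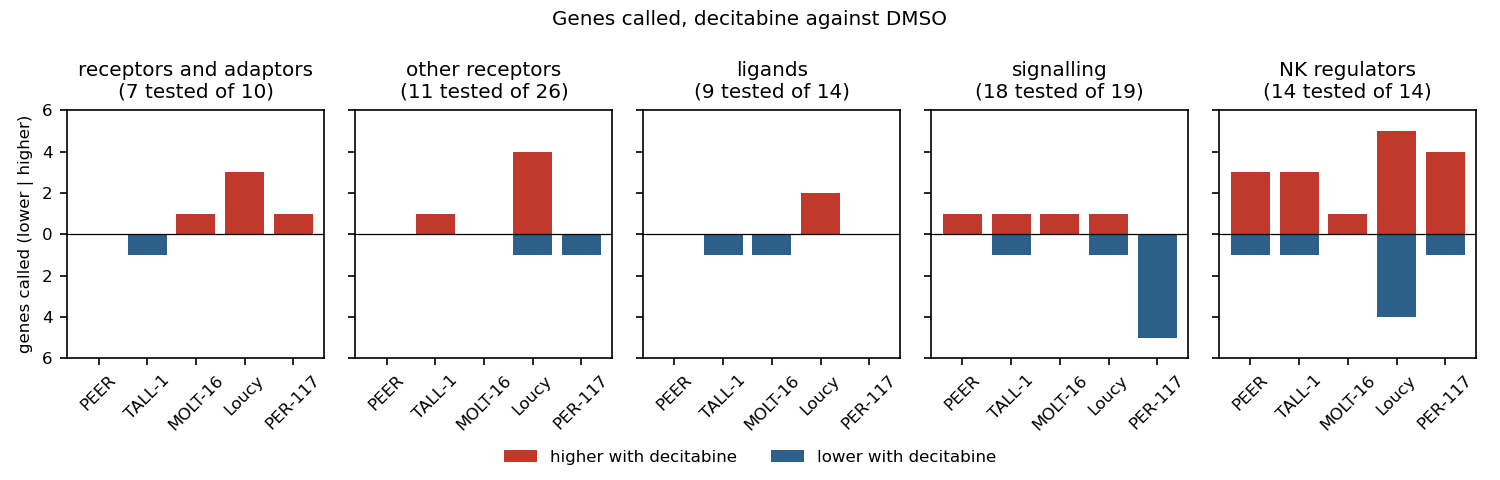
Genes called by line (bars; above 0 higher and below 0 lower with decitabine, y axis in genes) among the 10 receptors and adaptors and in the 4 lists around them, with the number tested of the number listed in each title. Loucy has 3 of the 7 tested receptors and adaptors and 4 of 11 other receptors higher, and PER-117 has 5 of 18 signalling proteins lower.

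Markers of other blood cells also moved in some of the lines in which the adaptors rose. In Loucy the summed level of 10 myeloid markers was 58.4 to 61.5 CPM with decitabine, with reads for all 10, against 18.4 to 22.3 CPM with DMSO, with CSF3R, CD68 and S100A9 at 0. In PER-117 it was 38.4 to 53.1 CPM with decitabine (LYZ at 0) and 45.2 to 62.3 CPM with DMSO (CSF3R and CD68 at 0). MOLT-16 had 7.50 to 11.4 CPM with decitabine (CD14 and SPI1 at 0) and 4.47 to 7.25 CPM with DMSO (CD14, MPO, CSF1R, CSF3R and SPI1 at 0). The ranges of this sum did not overlap between treatments in Loucy and MOLT-16 and overlapped in PER-117. PEER had 17.2 to 24.8 CPM with decitabine and 4.72 to 7.85 CPM with DMSO, without overlap, and TALL-1 1.61 to 2.84 CPM with decitabine and 0.984 to 4.83 CPM with DMSO.

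Of 4 mast-cell and basophil markers, HDC was called in PEER, Loucy and PER-117, while MS4A2, a chain of the IgE receptor of which FCER1G is also a part, was at 0 in every group but those of PER-117 (54 reads with decitabine and 32 with DMSO). Their sum was 80.8 to 90.5 CPM in Loucy with decitabine and 21.9 to 25.5 CPM with DMSO, 107 to 129 CPM in PEER with decitabine and 38.2 to 50.9 CPM with DMSO, and 27.7 to 35.6 CPM in PER-117 with decitabine and 14.1 to 17.2 CPM with DMSO. These groups did not overlap. Most of the sum in PEER was KIT, with 1971 reads with decitabine and 760 with DMSO. HDC had 102 and 2 reads there, and CPA3 had 1 and 0. In Loucy and PER-117 KIT had at most 40 reads per group. In MOLT-16 the sum was 12.2 to 28.02 CPM with decitabine and 3.07 to 18.3 CPM with DMSO, with overlap, and in TALL-1 it was 0.460 to 1.15 CPM with decitabine and 0.246 to 10.9 CPM with DMSO. The sum of 8 NK markers was 104 to 112 CPM in Loucy with decitabine and 49.1 to 64.0 CPM with DMSO, 51.9 to 62.1 CPM in TALL-1 with decitabine and 14.1 to 18.2 CPM with DMSO, and 122 to 142 CPM in PER-117 with decitabine and 149 to 188 CPM with DMSO. It was 23.1 to 31.4 CPM in PEER with decitabine and 7.87 to 22.1 CPM with DMSO, and 202 to 265 CPM in MOLT-16 with decitabine and 153 to 294 CPM with DMSO. Of these NK markers GNLY, GZMB, GZMH, KLRF1 and NCR1 were at 0 in PER-117 with DMSO. The sum of 5 B-cell markers was 85.4 to 88.6 CPM in Loucy with decitabine and 62.0 to 90.4 CPM with DMSO, and at most 50.4 CPM elsewhere. The part of such cells or programmes in the changes of TYROBP and FCER1G was not tested. KLRF1 stands among both the NK markers and the other receptors, and LCK among both the T-cell markers and the signalling proteins.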

How the data were processed

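The deposited files hold raw read counts per gene from STAR, in unstranded, gene-strand and opposite-strand columns per the file contents. STAR 2.4.2a, GRCh38 (hg38) and DESeq2 are named per the submitters' processing notes, and for the annotation release the sources used here give nothing. The gene-strand column was used, since it held 12.8 to 15.2 times the reads of the other strand, and symbols came from a GENCODE 29 table.

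Genes were filtered with filterByExpr (minimum count 10), scaled by TMM and tested with edgeR 4.0.16 in R 4.3.3 on all 30 libraries with 10 group means. P-values were adjusted by Benjamini-Hochberg over 15081 genes and called under 0.05. The SE is the size of the log2 change over the root of F, which is approximate. Lower bounds set a group at 0 to a floor of 3 counts over the group. Counting intervals are exact binomial at 95%. The fit was tested on counts simulated from its own means and spread, with changes planted only in genes with higher counts. That test cannot show how the fit performs at the few reads on which several calls here rest. Alternatives were RLE scaling, no filter, a replicate block, unstranded reads, the mixed libraries left out, each line alone, DESeq2 1.42.0, and each library left out in turn. DESeq2 was an alternative only.

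The 10 genes and all lists were chosen with earlier results of these data known. From each list, the 3 called genes with the largest change per line are named. The 3 genes most alike in pattern are named for each gene that reached 5 CPM.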

Additional observations from a re-analysis of the deposited data

Results flagged for a closer look

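The KLRC1 response to decitabine differed between the lines by the test of the difference itself (edgeR quasi-likelihood, adjusted p = 0.0135). The call was lost with the replicate number as a block (adjusted p = 0.0537). In Loucy KLRC1 had 13, 6 and 7 reads with decitabine and 0 in all libraries with DMSO, while in MOLT-16 it stood at 25.5, 28.4 and 35.1 CPM with decitabine, against 25.03, 22.3 and 20.7 CPM with DMSO.

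Reads on the strand opposite to KLRK1, which no comparison of gene counts uses, were seen in PER-117. There were 56 with decitabine and 16 with DMSO, a ratio of 2.86 (95% counting interval 1.61 to 5.33).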

How the results depend on the processing

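Of 848 values for single genes under the alternatives, 783 kept their direction and side of the threshold, 31 became called, 5 lost their call and 29 turned their direction. With no filter the genes called were 2 higher in PEER, 2 lower in TALL-1, 2 higher and 1 lower in MOLT-16 and 2 higher in PER-117, 4 differed in response, and the lines as pairs gave 3 higher and 1 lower. Of all 33057 genes in that fit, 782 were higher in PEER, 1019 lower in TALL-1, 652 higher and 374 lower in MOLT-16 and 1630 higher in PER-117. For the differences in response and the lines as pairs no share of all genes was taken under the alternatives, so those counts stand alone. Leaving out the 3 mixed libraries, 2 were higher in PEER, 1 higher in TALL-1, 1 lower in MOLT-16 and 2 higher in PER-117, where KLRD1 was added (adjusted p = 0.00586), and 3 differed in response. Of all 15741 genes then tested, 740 were higher in PEER, 1174 higher in TALL-1, 1249 lower in MOLT-16 and 1877 higher in PER-117. KLRD1 was also called in Loucy without the mixed libraries (adjusted p = 0.0132), with no filter (0.0169) and by DESeq2 (0.0205). Loucy thus had 4 higher under each of these, against 2 with the line fitted alone. Over all genes Loucy had 2282 of 15741 higher without the mixed libraries and 2165 of 33057 with no filter. DESeq2 called 1749 of 18308 higher there, and the line fitted alone 2162 of 14365. With a line fitted alone 0 were lower in TALL-1 and 2 higher in PER-117, against 880 of 11231 genes lower and 1707 of 12693 higher. DESeq2 gave 2 higher in PEER, 2 lower in TALL-1 and 2 higher in PER-117. Over all genes it called 636 of 16386 higher in PEER, 1121 of 15745 lower in TALL-1 and 1408 of 17667 higher in PER-117. Without the line TALL-1, 1 was higher with the lines as pairs. Leaving out 1 library gave 0 to 1 higher in PEER, 0 to 2 lower in TALL-1, 0 to 1 lower in MOLT-16, 1 to 2 higher in PER-117 and 1 to 3 that differed in response. These fits tested 15331 to 15756 genes in all. They called 335 to 495 higher in PEER, 493 to 822 lower in TALL-1, 29 to 850 lower in MOLT-16 and 906 to 1132 higher in PER-117.

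With the replicate block 1 gene was higher in PEER (FCER1G, log2 1.95, adjusted p = 0.0166) and 0 differed in response (KLRC1, adjusted p = 0.0537). Over all genes that fit called 499 of 15081 higher in PEER. Same-numbered libraries deviated together by over 0.1 in all 3 pairs of PER-117 (correlations 0.148, 0.201 and 0.313), and not in all pairs of the other lines. PEER had 0.292 for replicate 1, 0.0375 for replicate 2 and -0.244 for replicate 3, and MOLT-16 had 0.16 for replicate 2. These values cannot decide whether same-numbered libraries are paired. For PEER with DMSO, titles and deposited names disagree on which library is replicate 2 and which is 3, and the titles were followed.

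The turned values are of uncalled genes, mostly with few reads, and the cause was not tested. In PEER KLRB1 was at 0.22 with the replicate block, 0.18 by DESeq2 and 1.62 without the mixed libraries. Without the mixed libraries KLRC1 was at 2.26 and KIR3DL2 at -0.015 in PEER, and NCR3 was at 2.52 in TALL-1 and -0.019 in MOLT-16. With unstranded reads KLRB1 was at -0.42 in TALL-1. With the lines as pairs NCR3 was at -0.026 with no filter, -0.23 without PEER, -0.037 without MOLT-16 and -0.20 without PER-117. Leaving out 1 library gave log2 values of -2.10 to 1.60 for KLRB1 in PEER, -1.43 to 2.13 in TALL-1, -0.11 to 1.29 in MOLT-16 and -0.14 to 2.72 in Loucy. It gave -3.15 to 2.20 for KLRC1 in PEER, -0.039 to 0.54 for KIR3DL2 in PEER, -5.96 to 2.48 for NCR3 in TALL-1, -0.074 to 0.20 for NCR3 in MOLT-16, -4.97 to 1.99 for FCER1G in TALL-1 and -0.67 to 0.056 for HCST in MOLT-16.

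Over all genes, MOLT-16 had 331 higher and 152 lower, against 652 and 374 with no filter, 494 and 284 by DESeq2, 1539 and 1249 once the mixed libraries were dropped, and 58 and 1 fitted alone. PEER had 534 higher and 145 lower, against 782 and 247 with no filter, 578 and 89 with RLE scaling, and 276 and 30 fitted alone. The lower calls numbered 623 in Loucy, against 1259 without the mixed libraries and 1344 alone, and 477 in PER-117, against 881 and 1390. With at most a few reads per library, changes of KLRK1, NCAM1 and KLRB1 outside MOLT-16 were not detectable at this depth.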

Other observations

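Opposite-strand reads were also found at NCR3 and KLRB1. NCR3 had 1404 of them over all libraries, with 302 in PER-117 with decitabine and 427 in PER-117 with DMSO, a ratio of 0.577 (95% counting interval 0.496 to 0.670). LST1, a gene on the other strand, shares 15 exonic bases with NCR3. The unstranded column of NCR3 held 1085 reads, fewer than the 1537 on its own strand. Reads there were thus set aside as falling in more than 1 gene, and the ratio cannot be given to RNA antisense to NCR3 alone. Whether the reads came from LST1 was not tested. KLRB1 had 125, with 39 in PER-117 with decitabine and 30 with DMSO, and 21 in Loucy with decitabine and 22 with DMSO. Its unstranded column held 214 reads, the 89 on its own strand and these 125, so none of these was set aside.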
